A study of Mus musculus with 6 samples.

Results

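SHP099 was added to imiquimod and compared with imiquimod alone, in single-cell RNA libraries of mouse dorsal skin. All mice were female C57BL/6 animals aged 8 to 10 weeks. The IMQ group had 62.5 mg of cream with 5% imiquimod spread on shaved back skin every day for 4 days. The IMQ+SHP099 group had the same cream together with SHP099 at 10 mg/kg by gavage every day for 4 days, and every mouse was killed 1 day after the last treatment. Comparison mice of the study's imiquimod experiments received vehicle, but whether the sequenced IMQ mice did is not given in the sources used here. Untreated (Sham) mice were not part of the contrast, and their libraries served as a reference level and as a further source of the spread between libraries. Each group had 2 libraries, each pooled from several mice, so the library was the replicate and n = 2 in each group. The members of the comparison were chosen by depth filters and by marker genes: 29681 gated cells of 34035 kept cells in the 4 treated libraries, out of 50850 kept cells in the 6 libraries of the series.

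SHP2, the product of Ptpn11, is a phosphatase that relays signals from growth factor and cytokine receptors to the RAS and ERK kinases. SHP099 is an allosteric inhibitor that holds SHP2 in its closed, inactive form. ERK signalling switches on a set of early and feedback genes, among them the phosphatase gene Dusp6 and the Sprouty genes, so their transcripts are a common readout of the pathway. Imiquimod activates the RNA sensor TLR7, and in mouse skin the cream brings on a psoriasis-like inflammation in which gamma-delta T cells release IL-17 and IL-22, keratinocytes thicken the epidermis and make chemokines and antimicrobial proteins, and neutrophils and monocytes enter the tissue.

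The library IMQ+SHP099 1 stood apart from the other 3 treated libraries. Its total was 188283327 UMIs (unique molecular identifiers, 1 per captured transcript), against 53913865 in IMQ+SHP099 2 and 117050780 and 125455016 in IMQ 1 and IMQ 2. A kept cell held a median of 18263.5 UMIs there, against 5645 in IMQ+SHP099 2 and 8772 and 8854 in IMQ. Keratinocytes, the class with the most UMIs per cell, made up 62.9% of its kept cells. Sham 1 had a similar share of 67.5%, against 17.2% in Sham 2, and in each group library 1 held more keratinocytes than library 2. List medians and genes that turn on IMQ+SHP099 1 are also given without it, which leaves IMQ+SHP099 2 as the only library of its group. Any 2 of the 6 libraries shared 12 to 30 cell barcodes, at most 0.39% of a library. Below, a pair of values is given in the order of libraries 1 and 2, and a level is in CPM (counts per 1000000), the share of a gene among all UMIs of that class in that library, with library sizes scaled by TMM. A fitted difference is IMQ+SHP099 minus IMQ on the log2 scale with its standard error, from edgeR's quasi-likelihood fit to the class sums. Where leaving out IMQ+SHP099 1 turned its sign or moved it by more than 1.5 times, the value without that library follows after "or". Where a gene was separated only while the 1 cell with the highest UMI count of that gene in a library was kept, this is said beside it (a check added after the data were seen).

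No gene passed an adjusted p of 0.05 in any of the 6 classes. The test covered 14136 genes in keratinocytes, 14774 in fibroblasts, 11277 in mural cells, 10152 in endothelial cells, 8957 in T cells and 11291 in myeloid cells, and the share called was 0% in each. The lowest adjusted p in edgeR was 0.582, 1, 0.703, 0.446, 0.999 and 1 in the same order, so every gene described here missed the threshold. At an unadjusted p under 0.05, which is not a call, edgeR listed 430, 123, 195, 285, 267 and 130 genes. DESeq2, run on the same sums, called 28 genes in keratinocytes, 1 in fibroblasts, 3 each in mural, endothelial and myeloid cells, and 0 in T cells. A weaker description is used instead: a gene or list member is called separated where both IMQ+SHP099 libraries lay above, or both below, both IMQ libraries. Over all genes tested, the share separated higher was 17.6% in keratinocytes, 12.7% in fibroblasts, 13.3% in mural cells, 16.9% in endothelial cells, 18.4% in T cells and 13.6% in myeloid cells. The share separated lower was 13.4%, 12.1%, 16.4%, 17.2%, 17.9% and 15.4%. Each count of list members is to be read against these shares, and the median fitted difference of all genes lay between 0.00 and 0.05 in every class.

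The makeup of the skin samples was compared first. Myeloid cells, the class gated on Lyz2 and Cd74, took 8.86% and 7.63% of kept cells with IMQ alone and 2.26% and 5.58% once SHP099 was added. The groups did not overlap (two-sided exact permutation test, p = 0.33, the smallest that 2 against 2 libraries allow). The order held among cells other than keratinocytes, where the shares were 10.7% and 8.27% against 6.07% and 5.93%. Endothelial cells took 2.93% and 2.32% against 1.19% and 1.92% (exact p = 0.33, again the smallest possible), but among cells other than keratinocytes the groups overlapped (3.53% and 2.52% against 3.19% and 2.05%).

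**Figure D1:**
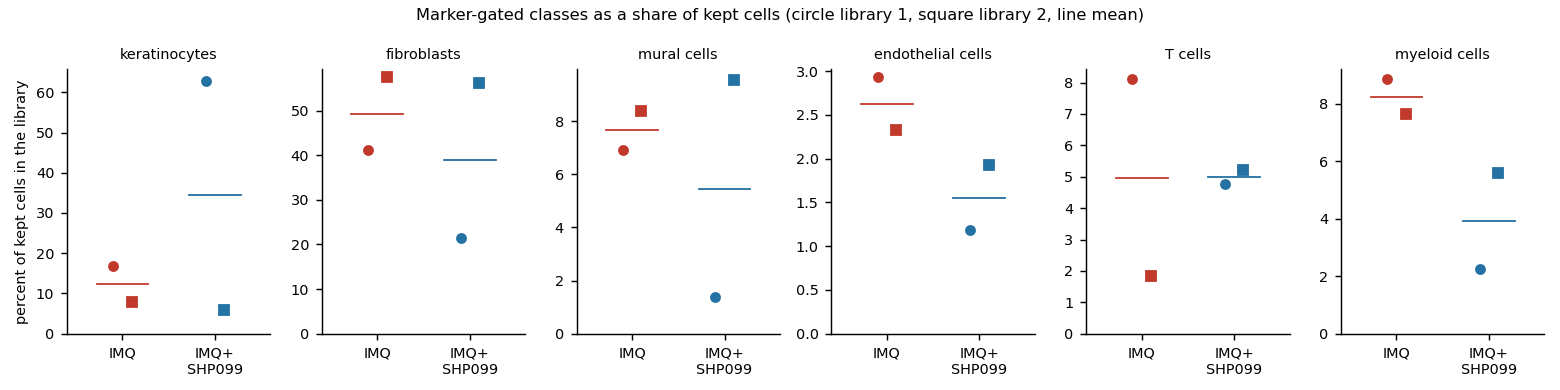
Share of kept cells, in percent, that each marker-gated class took in the 4 treated libraries (circles library 1, squares library 2, lines group means; each axis starts at 0). Both IMQ+SHP099 libraries sit below both IMQ libraries for endothelial and myeloid cells, and the 62.9% of keratinocytes in IMQ+SHP099 1 stands far above the other 3 libraries.

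The other classes did not separate the groups. Keratinocytes took 16.9% and 7.75% of kept cells with IMQ against 62.9% and 5.95% with IMQ+SHP099. Fibroblasts took 41.1% and 57.5% against 21.5% and 56.1%. Mural cells, the contractile cells of vessel walls and hair muscles, took 6.90% and 8.39% against 1.37% and 9.54%, and T cells 8.11% and 1.84% against 4.75% and 5.20%. In each of these classes the libraries of the groups overlapped, and the exact permutation p was 0.667 for fibroblasts and 1 for the rest. Fewer cells of a type and more cells of another cannot be told apart in a share.

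Neutrophil-marked cells were counted from marker genes, because many of them fell outside every gate (187 of 282 in IMQ 1). A cell was neutrophil-marked where the UMIs of 9 neutrophil genes, S100a8 and S100a9 left out, exceeded those of 14 macrophage and monocyte genes. The 9 genes were Retnlg, Csf3r, Cxcr2, Ly6g, Mmp8, Cxcr4, G0s2, Clec4d and Hdc. Of these, G0s2 and Hdc were also detected in the endothelial class, and mast cells and basophils had no gate. In untreated Sham 2, 111 of 1034 cells outside every gate were neutrophil-marked. How many marked cells were of another type was not tested. Counting such cells inside the myeloid gate and outside all gates, a measure chosen after the data were seen, IMQ 1 held 282 of 6378 cells other than keratinocytes (4.42%, 95% Clopper-Pearson interval 3.93 to 4.96) and IMQ 2 held 411 of 9495 (4.33%, 3.93 to 4.76). IMQ+SHP099 1 held 36 of 3227 (1.12%, 0.783 to 1.54) and IMQ+SHP099 2 held 153 of 6943 (2.20%, 1.87 to 2.58). The groups did not overlap, and the lower pair lay close to the 1.40% and 2.07% of Sham (exact permutation p = 0.33, the smallest possible). The intervals cover counting error only, and a cell outside every gate needed 2 neutrophil UMIs, which a shallower cell reaches less easily. Among cells outside every gate, the median depth was 3463.5 UMIs for IMQ 1 and 2896 UMIs for IMQ 2. With SHP099 added this depth was lower, at 2028 UMIs for library 1 and 2540 UMIs for library 2. The part of depth in the lower neutrophil-marked share was not tested. Within the myeloid gate alone the share was 14.0% (95% Clopper-Pearson interval 11.5 to 16.8) and 27.5% (24.4 to 30.8) with IMQ. With IMQ+SHP099 it was 3.57% (1.45 to 7.22) and 12.1% (9.14 to 15.7), so the intervals of IMQ 1 and IMQ+SHP099 2 overlapped.

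Transcripts of the drug target and of the ERK pathway were examined in every class. Ptpn11 (ENSMUSG00000043733, at chr5:121130533-121191397 on GRCm38) overlapped between the groups in all 6 classes. In keratinocytes its level was 34.3 and 34.9 CPM in IMQ and 40.0 and 34.4 CPM in IMQ+SHP099, and in fibroblasts 54.0 and 57.7 CPM in IMQ and 59.9 and 51.4 CPM in IMQ+SHP099. The fitted difference was 0.11 ± 0.23 or -0.01 in keratinocytes, -0.01 ± 0.25 or -0.13 in fibroblasts, 0.03 ± 0.25 or 0.05 in mural cells, 0.14 ± 0.32 or 0.26 in endothelial cells and 0.11 ± 0.35 or -0.20 in myeloid cells. In T cells the level was 39.0 and 22.8 CPM in IMQ and 115 and 27.8 CPM in IMQ+SHP099, so the fitted difference of 1.11 ± 0.60 came from 1 library and was -0.23 without it. An inhibitor of the protein need not alter its transcript, and the transcript does not measure SHP2 activity.

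Genes switched on by ERK had no shared direction across the classes. In keratinocytes 16 of 28 tested members had a fitted difference above 0 (4 separated higher, 2 lower; median 0.10), and in myeloid cells 18 of 26 (4 and 1; median 0.22). In fibroblasts 8 of 28 were above 0 (1 separated higher, 7 lower; median -0.24). The counts above 0 were 12 of 27 in mural cells, 10 of 24 in endothelial cells and 9 of 22 in T cells, with medians of -0.03, -0.16 and -0.16. Without IMQ+SHP099 1 the endothelial and T cell medians were 0.05 and 0.10. In fibroblasts the 7 of 28 separated lower stood beside 12.1% of all genes, and in endothelial cells 8 of 24 beside 17.2%. Early genes such as Fos, Egr1 and Ier2 also respond to the dissociation of tissue. Of 24 dissociation and heat shock genes, those separated higher and lower numbered 4 and 3 in keratinocytes, 4 and 6 in fibroblasts, 2 and 1 in mural cells, 7 and 2 in endothelial cells, 0 and 5 in T cells and 7 and 0 in myeloid cells. Their part in the ERK readout was not tested. The endothelial class holds blood and lymphatic cells, and the marker sums of both differed between the groups, as given further below. A changed mix of these cells and a changed level per cell cannot be told apart in the endothelial ERK genes.

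Dusp6 (at chr10:99263231-99267489), whose product removes phosphate from ERK and whose transcript follows ERK activity closely, lay higher with SHP099 in keratinocytes and in endothelial cells. In keratinocytes it was at 45.6 and 43.0 CPM in IMQ and 62.1 and 66.9 CPM in IMQ+SHP099, with no overlap and a fitted difference of 0.54 ± 0.23. In endothelial cells it was at 71.7 and 78.9 CPM in IMQ and 98.2 and 135 CPM in IMQ+SHP099 (0.64 ± 0.27), again with no overlap. In myeloid cells it was separated lower, at 24.3 and 36.9 CPM against 46.9 and 44.5 CPM (-0.57 ± 0.43 or -0.31). In fibroblasts (-0.18 ± 0.45 or 0.14), mural cells (-0.39 ± 0.87 or -0.98) and T cells (0.03 ± 0.51 or 0.50) the libraries of the groups overlapped. Whether these classes differ from each other was not tested.

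Ier3, an early response gene that lengthens ERK signalling, was at 815 and 576 CPM in IMQ and 1787 and 890.0 CPM in IMQ+SHP099 in keratinocytes (0.94 ± 0.52 or 0.35). In fibroblasts it was at 678 and 656 CPM in IMQ and 371 and 556 CPM in IMQ+SHP099 (-0.52 ± 0.36 or -0.27), and in endothelial cells at 1073 and 645 CPM in IMQ and 545 and 628 CPM in IMQ+SHP099 (-0.55 ± 0.35). Its libraries did not overlap in these 3 classes, higher with SHP099 in the first and lower in the other two, in endothelial cells only with the cell that held 6.01% of its UMIs in IMQ 2. Spry1, an inhibitor of RAS activation, was at 83.7 and 74.1 CPM in IMQ and 53.8 and 72.0 CPM in IMQ+SHP099 in fibroblasts (-0.33 ± 0.24 or -0.14) and at 65.9 and 40.6 CPM in IMQ and 29.6 and 33.1 CPM in IMQ+SHP099 in endothelial cells (-0.75 ± 0.37), lower without overlap in both. In keratinocytes Spry1 overlapped (21.8 and 19.1 CPM in IMQ and 53.8 and 17.8 CPM in IMQ+SHP099), and its fitted difference of 0.83 became -0.20 without IMQ+SHP099 1. Spry2 and Spry4, from the same family, were separated higher in T cells, at 180.3 and 119.9 CPM in IMQ and 424 and 366 CPM in IMQ+SHP099 for Spry2 (1.38 ± 0.57) and 21.0 and 10.6 CPM in IMQ and 71.2 and 25.2 CPM in IMQ+SHP099 for Spry4 (1.45 ± 0.58 or 0.53).

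**Figure D2:**
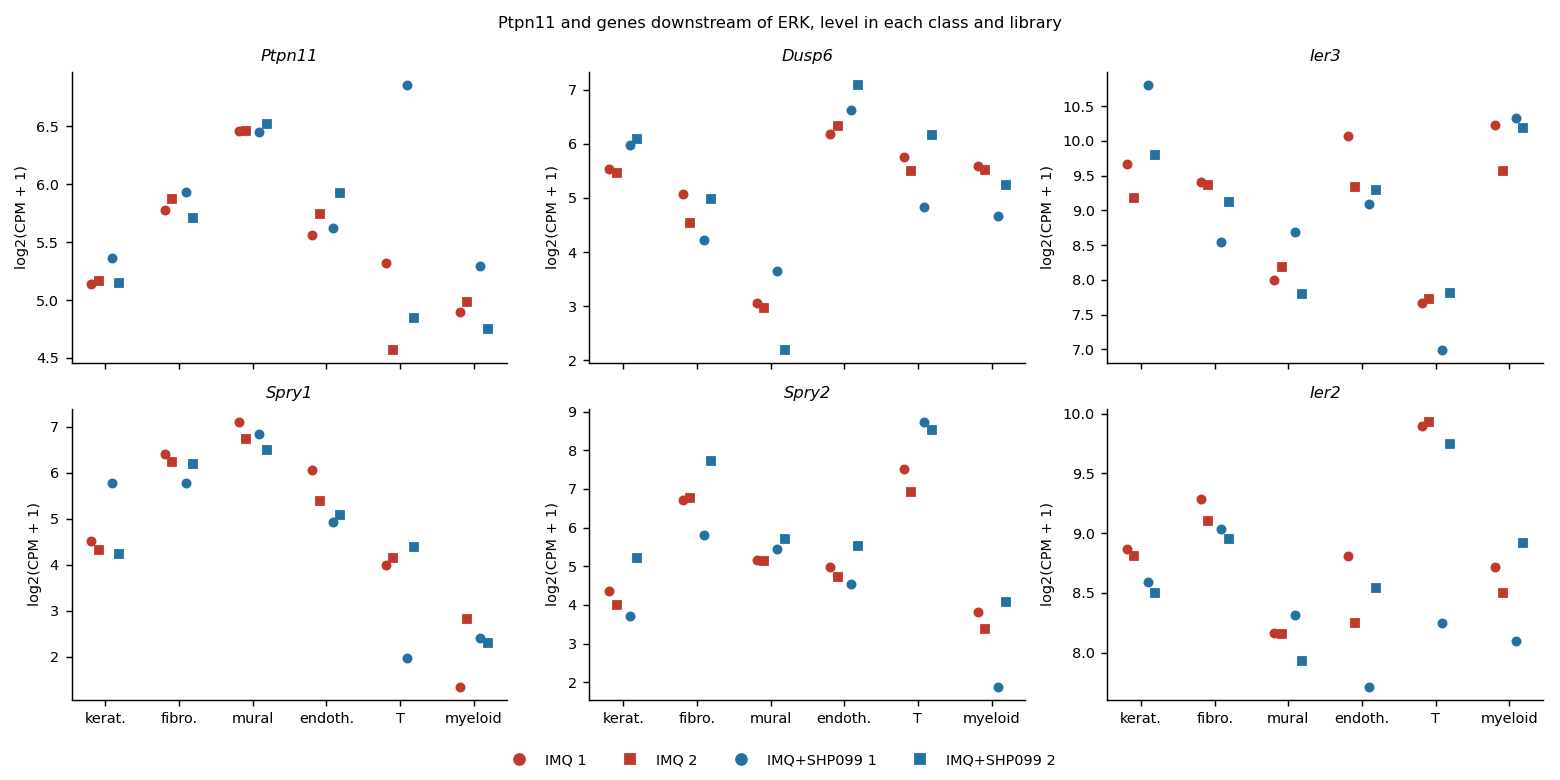
Level of Ptpn11 and of 5 ERK-linked genes, as log2(CPM + 1), in each class of the 4 treated libraries (red IMQ, blue IMQ+SHP099; circles library 1, squares library 2). Dusp6 lies higher in both IMQ+SHP099 libraries in keratinocytes and endothelial cells and lower in myeloid cells, and Ptpn11 overlaps in every class.

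Hbegf, a ligand of the epidermal growth factor receptor, was among the ERK-linked genes that were separated lower in endothelial cells. It was at 132 and 141 CPM in IMQ and 48.2 and 57.4 CPM in IMQ+SHP099, so both IMQ+SHP099 values lay under both IMQ values and under the Sham levels of 143 and 171 CPM (fitted difference -1.36 ± 0.26, and -1.26 without IMQ+SHP099 1). In mural cells Hbegf was at 94.4 and 98.2 CPM in IMQ and 92.8 and 90.5 CPM in IMQ+SHP099 (-0.07 ± 0.32). It was separated lower there only with the cell that held 2.57% of its UMIs in IMQ 1. Areg, another ligand of that receptor, was higher in the myeloid class, at 8.83 and 8.49 CPM in IMQ and 133 and 25.5 CPM in IMQ+SHP099 (3.19 ± 0.95 or 1.55), where its level was 0.0283 to 0.167 times that in all kept cells of the library. In T cells Areg was at 516 and 665 CPM in IMQ and 463 and 505 CPM in IMQ+SHP099 (-0.28 ± 0.56). These groups did not overlap, but 1 cell held 43.6% of the UMIs in IMQ 2, whose level was 379 CPM without it, under both IMQ+SHP099 libraries. In IMQ 1, 1 cell held 11.2%, and that library was at 459 CPM without it, also under both. The 14 receptor and ligand genes of this axis that were tested in keratinocytes split evenly, with 7 above 0.

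Keratinocytes in IMQ+SHP099 libraries carried higher levels of many genes of lesional epidermis than those in IMQ libraries. Of 53 tested lesional genes, 40 had a fitted difference above 0, with 21 separated higher and 3 lower, and the median was 0.54 (0.44 without IMQ+SHP099 1). The separated share, 21 of 53, stood against 17.6% of all genes. S100a8, which encodes calprotectin together with S100a9, was at 16846 and 12967 CPM in IMQ and 18709 and 24504 CPM in IMQ+SHP099 (0.54 ± 0.55). S100a9 was at 18303 and 12368 CPM in IMQ and 20955 and 19988 CPM in IMQ+SHP099 (0.42 ± 0.69). Both libraries of IMQ+SHP099 lay above both of IMQ for each gene, against 1.79 and 0.561 CPM of S100a8 in Sham.

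Epgn, which encodes the growth factor epigen, was at 209.6 and 132 CPM in IMQ and 426 and 329 CPM in IMQ+SHP099 (1.15 ± 0.42). Il19, a cytokine gene of the interleukin-10 family made by lesional keratinocytes, was at 58.4 and 22.3 CPM in IMQ and 114 and 67.4 CPM in IMQ+SHP099 (1.17 ± 0.52 or 0.73), and listed at 0.159 and 0 CPM in Sham. The lowest IMQ+SHP099 library of each gene exceeded the highest IMQ library, for Il19 only with the cell that held 23.5% of its UMIs in IMQ+SHP099 2. Sprr2f, named for the size of its difference, and the list members Sprr2e and Lce3d encode proteins of the cornified envelope and were separated higher as well. Sprr2f was at 149 and 87.4 CPM in IMQ and 826 and 182 CPM in IMQ+SHP099 (2.10 ± 1.23), Sprr2e at 239 and 169 CPM in IMQ and 553 and 335 CPM in IMQ+SHP099 (1.12 ± 1.00 or 0.71) and Lce3d at 6.71 and 15.1 CPM in IMQ and 22.7 and 53.6 CPM in IMQ+SHP099 (1.80 ± 0.97). The Sprr2 genes are near-identical copies, so the reads of one may have been counted in another. Without IMQ+SHP099 1, the difference of Sprr2f was 0.62 and that of Lce3d 2.30.

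The list was not uniform. Krt16, a keratin of the hyperproliferative epidermis, was at 8573 and 6617 CPM in IMQ and 7511 and 6042 CPM in IMQ+SHP099 (-0.16 ± 0.57 or -0.33) and overlapped. Serpinb3a and Serpinb3b, protease inhibitor genes of inflamed epidermis, were separated lower, at 358 and 247 CPM in IMQ and 215 and 203 CPM in IMQ+SHP099 for Serpinb3a (-0.54 ± 0.61) and with a difference of -0.25 ± 0.25 for Serpinb3b. They are close paralogs, and their values are uncertain for that reason. Homeostatic genes of the differentiated epidermis had 5 of 29 members separated higher and 0 lower, near the shares of all genes, with a median of 0.10.

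Most, but not all, genes for factors that recruit neutrophils and monocytes lay higher in keratinocytes of IMQ+SHP099 libraries. Of 15 tested, 11 were above 0, and 8 were separated higher and 3 lower, beside 17.6% and 13.4% of all genes. The median was 0.54, and 0.68 without IMQ+SHP099 1. Cxcl1, a neutrophil chemokine, was at 118 and 61.3 CPM in IMQ and 145 and 151 CPM in IMQ+SHP099 (0.72 ± 0.36). Cxcl3, a chemokine of the same receptor, was at 34.0 and 6.4 CPM in IMQ and 71.6 and 56.8 CPM in IMQ+SHP099 (1.66 ± 0.74). The groups did not overlap for either gene, and the Sham level of Cxcl1 was 8.43 and 5.11 CPM. Cxcl1 was below the level of all kept cells in each treated library (a ratio of 0.18 to 0.832). Interferon-stimulated genes had 37 of 43 members above 0 and 19 separated higher (median 0.46), but at low levels: Isg15 was at 5.1 and 7.08 CPM in IMQ and 12.1 and 10.2 CPM in IMQ+SHP099, which was 0.0651 to 0.424 times the level in all kept cells.

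Gpx2 (ENSMUSG00000042808, at chr12:76792333-76795554), which encodes a glutathione peroxidase of epithelia, was the gene with the largest lower difference by the naming rule. It was at 141 and 199.7 CPM in IMQ, from 618 of 1294 and 438 of 798 keratinocytes with a UMI, and at 37.5 and 45.5 CPM in IMQ+SHP099, from 1275 of 5461 and 107 of 439. Its Sham level was 1.79 and 2.06 CPM, so the IMQ+SHP099 libraries lay between Sham and IMQ. The fitted difference was -2.04 ± 0.28 (edgeR adjusted p = 0.582), and -1.90 without IMQ+SHP099 1. DESeq2 called Gpx2 (adjusted p = 1.74e-07), and so did edgeR with the replicate number as a block (adjusted p = 0.0247). Id1, an inhibitor of basic helix-loop-helix factors, was at 231 and 168 CPM in IMQ and 80.3 and 115 CPM in IMQ+SHP099 (-1.03 ± 0.43).

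Genes of the cell cycle depended on the library. Of 43 tested, 42 were above 0 with a median of 0.29, but only 7 were separated higher and the median was -0.14 without IMQ+SHP099 1. Histone gene Hist1h2ap was at 45.7 and 69.8 CPM in IMQ and 275 and 117 CPM in IMQ+SHP099 (1.76 ± 0.44 or 1.02) and Hist1h2ae at 39.4 and 44.5 CPM in IMQ and 126 and 115 CPM in IMQ+SHP099 (1.52 ± 0.28). Both histone genes have near-identical copies in their cluster. Mki67, a marker of dividing cells, overlapped between the groups (50.4 and 63.3 CPM in IMQ and 85.9 and 42.4 CPM in IMQ+SHP099).

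**Figure D3:**
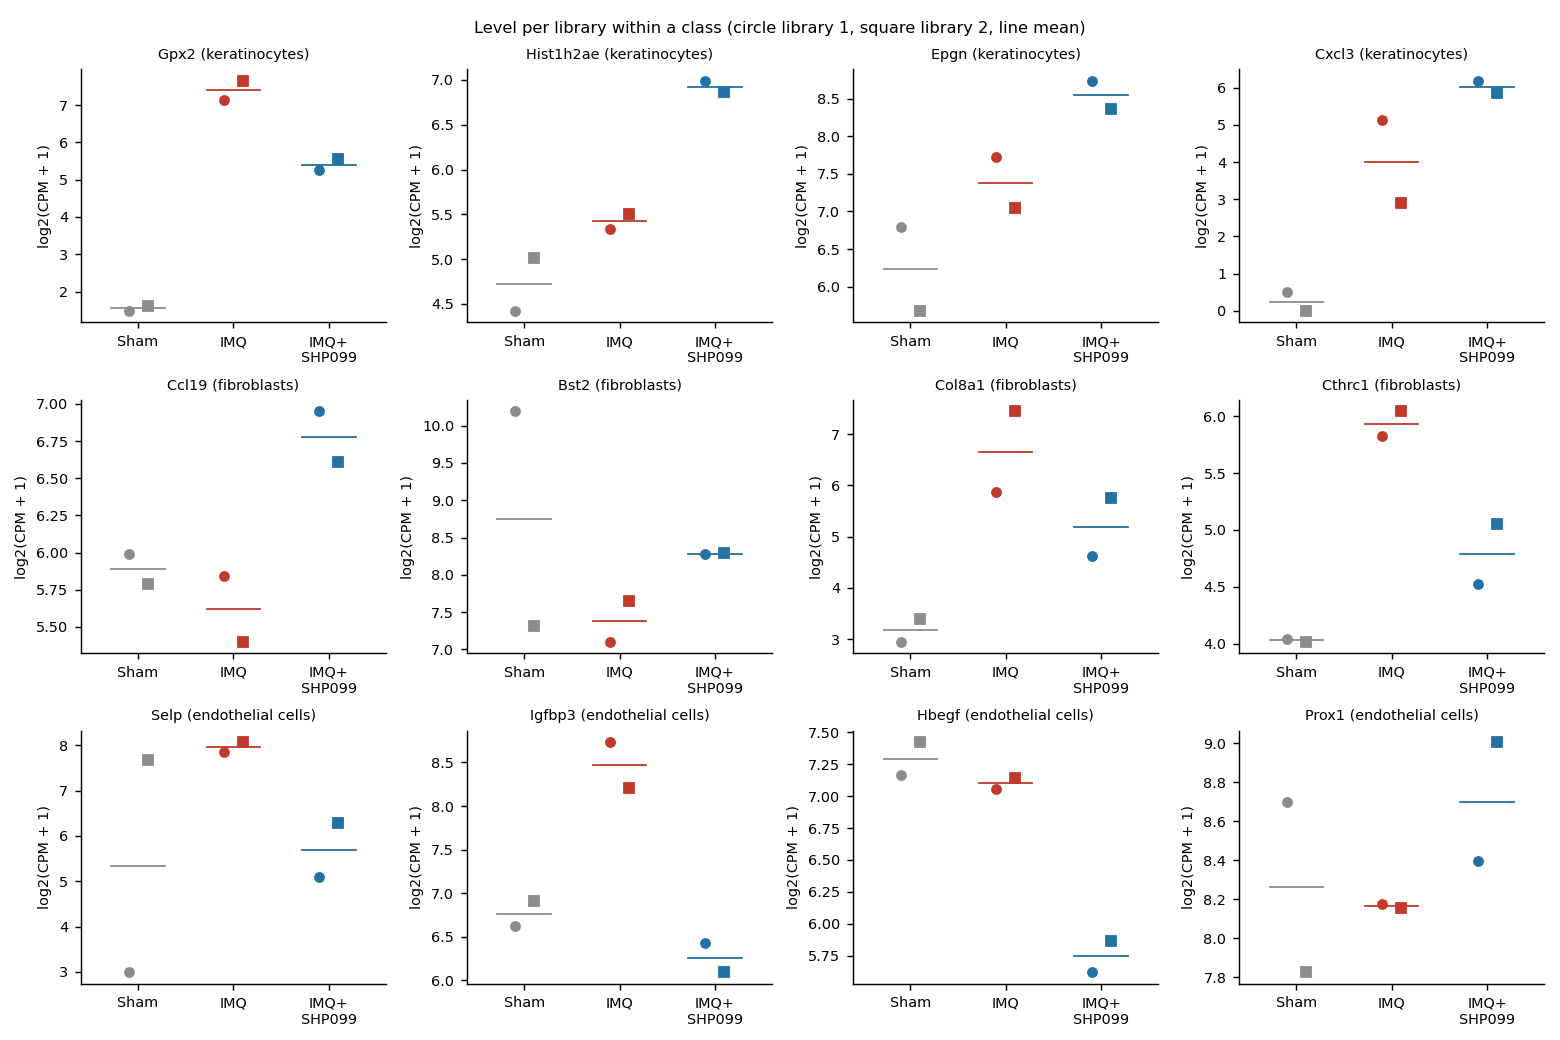
Level of 4 genes each in keratinocytes (top), fibroblasts (middle) and endothelial cells (bottom), as log2(CPM + 1), in all 6 libraries (grey Sham, red IMQ, blue IMQ+SHP099; circles library 1, squares library 2, lines means). Gpx2, Col8a1, Cthrc1, Selp, Igfbp3 and Hbegf lie lower, and Hist1h2ae, Epgn, Cxcl3, Ccl19, Bst2 and Prox1 higher, in both IMQ+SHP099 libraries than in both IMQ libraries.

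Fibroblasts carried higher interferon-stimulated genes in IMQ+SHP099 libraries. Of 46 tested, 43 had a fitted difference above 0, and 33 were separated higher against 1 lower, beside 12.7% and 12.1% of all genes. The median was 0.58, and 0.50 without IMQ+SHP099 1. Ifi27l2a was at 302 and 537 CPM in IMQ and 785 and 1009 CPM in IMQ+SHP099 (1.10 ± 0.96). Bst2, which tethers budding virus to the cell, was at 137 and 199 CPM in IMQ and 309 and 312 CPM in IMQ+SHP099 (0.89 ± 0.77). Both genes were separated, but the Sham libraries spread further than the treated ones, with 4642 and 365 CPM of Ifi27l2a and 1167 and 157 CPM of Bst2, which widens the standard errors. Isg15 was at 50.7 and 69.5 CPM in IMQ and 112 and 73.2 CPM in IMQ+SHP099 (0.62 ± 0.73 or 0.27), and Irf7, the factor that amplifies interferon genes, at 42.4 and 45.2 CPM in IMQ and 80.1 and 58.2 CPM in IMQ+SHP099 (0.66 ± 0.74 or 0.40).

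Over the 39 tested inflammatory genes of fibroblasts, 5 were separated higher and 4 lower, about the shares of all genes, and the median was 0.07. Cxcl14, a chemokine gene, was separated lower, at 468 and 468 CPM in IMQ and 463 and 309.8 CPM in IMQ+SHP099 (-0.28 ± 0.36 or -0.60), though only with the cell that held 1.74% of its UMIs in IMQ 1. Ccl19, a ligand of CCR7 that draws dendritic cells and naive T cells, was at 56.3 and 41.3 CPM in IMQ and 123 and 96.8 CPM in IMQ+SHP099 (1.17 ± 0.26, and 0.98 without IMQ+SHP099 1), with no overlap. Gm2564, which lies in the same chemokine gene cluster on chromosome 4, was at 150.3 and 98.5 CPM in IMQ and 264 and 432 CPM in IMQ+SHP099 (1.48 ± 0.48), and reads of the copies there may have been counted in one another. Ccl2, a chemokine for monocytes, was at 553 and 679 CPM in IMQ and 1672 and 689 CPM in IMQ+SHP099 (0.94 ± 0.84). Ccl2 was far above IMQ in IMQ+SHP099 1 alone, and its difference was 0.15 without that library. IMQ+SHP099 2 lay above IMQ 2 only with the cell that held 3.36% of its Ccl2 UMIs. Lif, a cytokine of the interleukin-6 family, was at 24.5 and 15.1 CPM in IMQ and 36.5 and 28.6 CPM in IMQ+SHP099 (0.72 ± 0.31), while Icam1, an adhesion molecule gene, was lower at 267 and 283 CPM in IMQ and 189.7 and 238 CPM in IMQ+SHP099 (-0.36 ± 0.26 or -0.22).

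Most matrix genes of fibroblasts had a fitted difference below 0, but few of them separated the groups. Of 36 tested, 30 were below 0, and the median was small at -0.15 (-0.24 without IMQ+SHP099 1). Only 6 were separated lower and 1 higher, beside 12.1% and 12.7% of all genes. Col8a1, a short-chain collagen of remodelling tissue, was at 57.6 and 173 CPM in IMQ and 23.7 and 53.2 CPM in IMQ+SHP099, against 6.74 and 9.55 CPM in Sham (-1.58 ± 0.57). Postn, which encodes the matrix protein periostin, was at 424 and 770.0 CPM in IMQ and 197 and 379 CPM in IMQ+SHP099 (-1.05 ± 0.52 or -0.66). IMQ 1 and IMQ 2 themselves differed by about the size of this contrast for both genes. Cthrc1, a gene of activated fibroblasts, was at 55.8 and 64.8 CPM in IMQ and 22.0 and 32.2 CPM in IMQ+SHP099, so both IMQ+SHP099 libraries lay between IMQ and the Sham levels of 15.5 and 15.2 CPM (-1.15 ± 0.25, and -0.92 without IMQ+SHP099 1). It was picked after its values were seen. Col3a1, a major fibrillar collagen, was at 8020 and 9736 CPM in IMQ and 7451 and 6411 CPM in IMQ+SHP099 (-0.36 ± 0.43), and Lum, which encodes lumican, was separated higher at 1652 and 1830 CPM in IMQ and 1977 and 2044 CPM in IMQ+SHP099 (0.21 ± 0.33).

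Of the cell cycle genes of fibroblasts, 38 of 43 had a fitted difference below 0 (median -0.32, and -0.55 without IMQ+SHP099 1). Of the 43, 12 were separated lower and 0 higher, beside 12.1% and 12.7% of all genes. Among these 12, Ccne2 was separated only with 1 cell of IMQ 1, and Cdk1 and Cenpf only with 1 cell of IMQ 2. Levels in the list were low in the treated libraries. Mki67 was at 5.05 and 4.64 CPM in IMQ and 5.93 and 2.57 CPM in IMQ+SHP099, and these libraries overlapped. Early response genes Egr2 (41.0 and 41.3 CPM in IMQ and 15.9 and 35.0 CPM in IMQ+SHP099; -0.69 ± 0.54 or -0.24) and Ier2 (625 and 547 CPM in IMQ and 523 and 493 CPM in IMQ+SHP099; -0.21 ± 0.29) were separated lower, and Phlda1, another ERK output, was higher at 157 and 172 CPM in IMQ and 209 and 202 CPM in IMQ+SHP099 (0.32 ± 0.50). Gm26802 (-1.52 ± 1.14) and Lsmem1 (-1.50 ± 0.94) completed the genes with the largest lower differences. They lay lowest in IMQ+SHP099 1, and were at -0.68 and -0.70 without it.

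Endothelial cells showed a split between genes of blood vessels and of lymphatic vessels. The summed level of 6 blood endothelial markers was 3188 and 2920 CPM in IMQ and 2081 and 1978 CPM in IMQ+SHP099, lower without overlap. The summed level of the lymphatic markers, of which the chemokine gene Ccl21a was the bulk, was 27896 and 25405 CPM in IMQ and 35863 and 29913 CPM in IMQ+SHP099, higher without overlap. These sums rest on 225 and 239 endothelial cells in IMQ and 103 and 142 in IMQ+SHP099. Fewer blood endothelial cells in the class and less of these transcripts per cell cannot be told apart in such a sum.

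Among single genes, Ackr1 (ENSMUSG00000037872, at chr1:173331886-173333750), a chemokine-binding receptor of venules through which leukocytes leave the blood, had the largest lower difference. It was at 142 and 122 CPM in IMQ, from 296 and 255 UMIs in 18 and 13 cells, and at 0 and 6.62 CPM in IMQ+SHP099, from 0 and 6 UMIs in 0 and 4 cells. The fitted difference was -5.00 ± 1.10 (edgeR adjusted p = 0.446) and rests on few cells. A count of 0 in IMQ+SHP099 1 allows up to 3 UMIs. Selp and Sele, which encode the selectins that make leukocytes roll, were at 230.1 and 268 CPM in IMQ and 33.4 and 77.2 CPM in IMQ+SHP099 for Selp (-2.13 ± 0.84) and 75.6 and 68.4 CPM in IMQ and 14.8 and 33.1 CPM in IMQ+SHP099 for Sele (-1.51 ± 0.62). Both selectins were separated lower, and the Sham libraries differed widely between themselves for Selp (6.96 and 204 CPM).

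Icam1, the ligand on which leukocytes come to a halt, was at 598 and 406 CPM in IMQ and 258 and 328 CPM in IMQ+SHP099 (-0.78 ± 0.29). Cxcl10, an interferon-induced chemokine gene, was at 545 and 724 CPM in IMQ and 237 and 284 CPM in IMQ+SHP099 (-1.28 ± 0.30, and -1.17 without IMQ+SHP099 1). Plvap, which forms the diaphragms of fenestrated vessels, was at 1234 and 1194 CPM in IMQ and 767 and 652 CPM in IMQ+SHP099 (-0.78 ± 0.44). All 3 genes were lower in both IMQ+SHP099 libraries. Flt1, a receptor of vascular endothelial growth factor, was at 407 and 285 CPM in IMQ and 135 and 142 CPM in IMQ+SHP099 (-1.32 ± 0.70), and Car4, a carbonic anhydrase of capillaries, at 87.6 and 60.7 CPM in IMQ and 13.0 and 2.21 CPM in IMQ+SHP099 (-3.51 ± 0.82). Igfbp3 and Mest, named after their values were seen because DESeq2 called them, were at 425 and 296 CPM in IMQ and 85.2 and 67.3 CPM in IMQ+SHP099 for Igfbp3 (-2.25 ± 0.31) and 91.0 and 61.7 CPM in IMQ and 5.56 and 11.0 CPM in IMQ+SHP099 for Mest (-3.10 ± 0.45). Igfbp3 encodes a carrier of insulin-like growth factors, and its Sham level was 97.5 and 119 CPM.

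Lymphatic genes lay higher. Prox1, the factor that sets lymphatic identity, was at 288 and 284 CPM in IMQ and 335 and 513 CPM in IMQ+SHP099 (0.57 ± 0.35), Flt4, a receptor of lymphatic growth factors, at 560.3 and 556 CPM in IMQ and 717 and 716 CPM in IMQ+SHP099 (0.36 ± 0.34) and Ccl21a at 24154 and 21771 CPM in IMQ and 32493 and 25758 CPM in IMQ+SHP099 (0.34 ± 0.74 or 0.16). Over the 32 tested adhesion and vessel genes, 4 were separated higher and 13 lower, beside 16.9% and 17.2% of all genes, and the median was near 0 at -0.07. Cell cycle genes had 33 of 37 members below 0, and 12 were separated lower against 0 higher (median -0.53, and -1.25 without IMQ+SHP099 1). Of these, Aurkb, Birc5, Ccnb1, Ccne2, Cdk1, Cenpe, Hmgb2, Rrm2, Top2a and Tpx2 were separated only with 1 cell of an IMQ library. Pcna and Rrm1 stayed separated without such a cell. The MHC class II genes were higher in 6 of 7, all 6 separated, with a median of 2.09. H2-Ab1, H2-Eb1, H2-DMa and H2-DMb1 were separated only with 1 cell of IMQ+SHP099 1, which held 68%, 87.5%, 100% and 100% of their UMIs. In that library 1 cell held 81% of the H2-Aa UMIs, and 1 cell held 80% of the Cd74 UMIs. Without such a cell both genes stayed separated, with H2-Aa at 5.73 CPM there. H2-Aa was at 2.41 and 2.87 CPM in IMQ and 29.6 and 26.5 CPM in IMQ+SHP099, which was 0.0138 to 0.422 times the level in all kept cells, and the summed level of the myeloid gate genes Lyz2 and Cd74 in the class was 11.3 and 23.8 CPM in IMQ and 61.5 and 65.9 CPM in IMQ+SHP099. The part of myeloid RNA in this result was not tested.

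Ifnb1, the gene of interferon beta, was higher in the endothelial class at 2.89 and 17.7 CPM in IMQ and 182 and 38.6 CPM in IMQ+SHP099 (3.35 ± 0.81 or 1.89). These levels came from 6 and 37 UMIs in 1 and 4 cells of IMQ, and from 98 and 35 UMIs in 8 and 3 cells of IMQ+SHP099. A single cell held 80% of the UMIs in IMQ+SHP099 2, which was at 7.88 CPM without it, between the IMQ libraries. AW011738 was at 8.18 and 8.61 CPM in IMQ and 55.6 and 17.7 CPM in IMQ+SHP099 (2.03 ± 0.54 or 1.06).

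**Figure D4:**
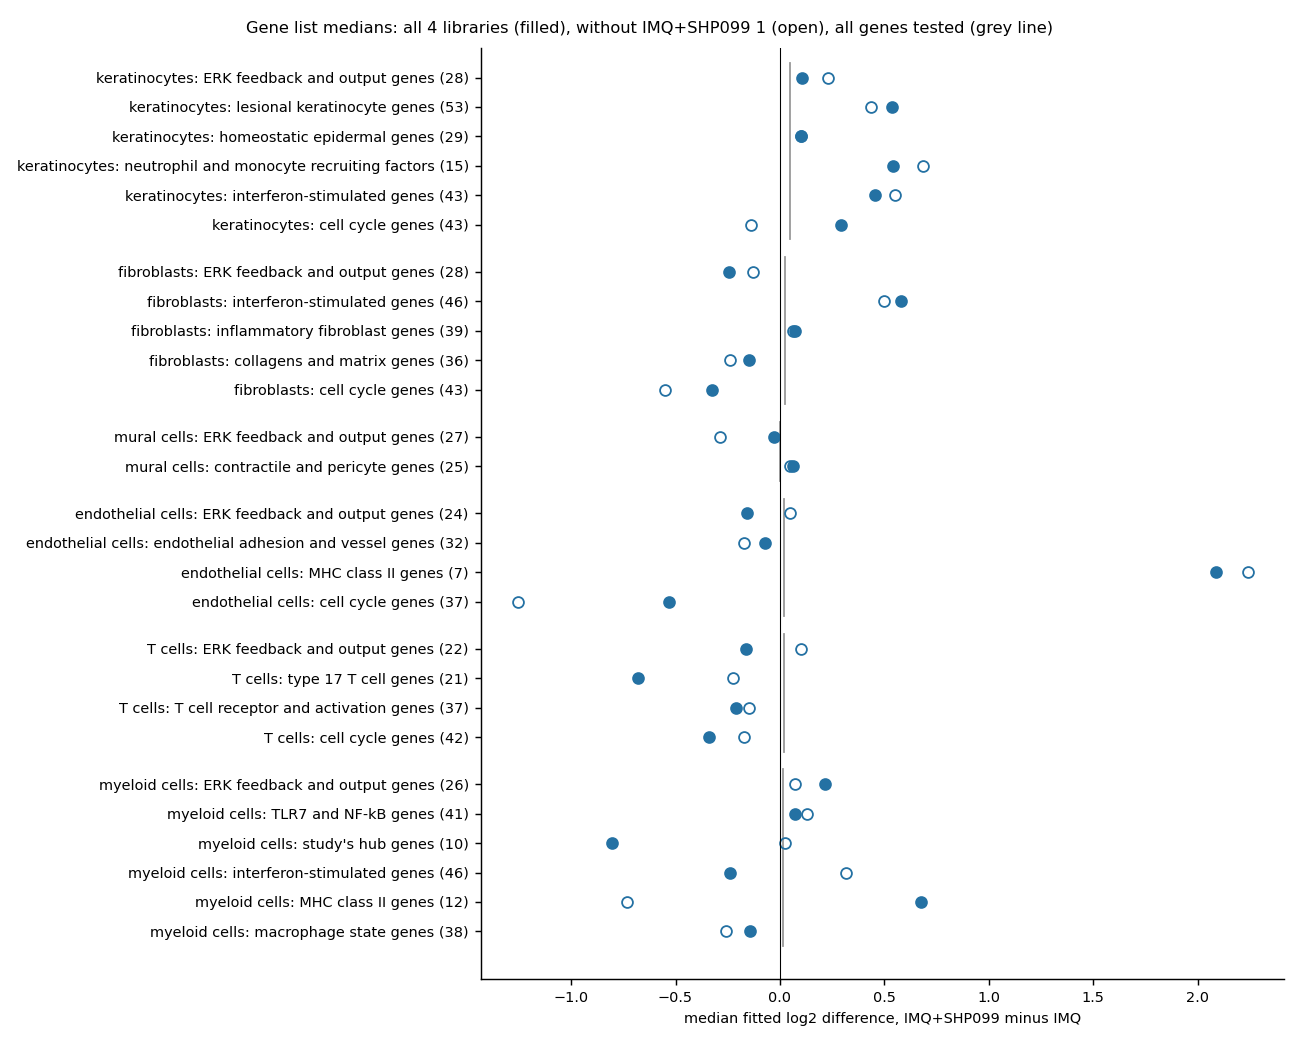
Median fitted log2 difference, IMQ+SHP099 minus IMQ, of each gene list in the class it describes, with the number of members tested in brackets (filled points all 4 libraries, open points without IMQ+SHP099 1, grey lines the median of all genes tested in that class). Interferon-stimulated genes in fibroblasts and lesional genes in keratinocytes sit above the grey line in both cases, while the hub, interferon and MHC class II medians of myeloid cells, the cell cycle median of keratinocytes and the ERK medians of endothelial and T cells change sign without IMQ+SHP099 1.

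In mural cells the genes that define them differed little. Of 25 contractile and pericyte genes, 5 were separated higher and 0 lower, with a median of 0.06 (0.05 without IMQ+SHP099 1). Tpm1, which encodes a tropomyosin, was at 4180 and 4237 CPM in IMQ and 5022 and 5801 CPM in IMQ+SHP099 (0.36 ± 0.26), and Rgs5, a pericyte regulator of G protein signals, at 885 and 1004 CPM in IMQ and 1204 and 1213 CPM in IMQ+SHP099 (0.36 ± 0.28). Neither gene overlapped between the groups. Acta2, smooth muscle actin and a gate gene, was at 26486 and 25920 CPM in IMQ and 26817 and 22978 CPM in IMQ+SHP099. Spry2 was higher at 34.7 and 34.2 CPM in IMQ and 42.5 and 51.4 CPM in IMQ+SHP099 (0.47 ± 0.26), though 1 cell held 33.3% of its UMIs in IMQ+SHP099 1 and without it the groups overlapped, and Myc, a growth-promoting factor, lower at 51.6 and 58.9 CPM in IMQ and 45.1 and 45.5 CPM in IMQ+SHP099 (-0.29 ± 0.22). The largest differences by the rule were Nrgn (13.2 and 16.5 CPM in IMQ and 38.7 and 28.2 CPM in IMQ+SHP099; 1.10 ± 0.48) and Prpf4b (78.5 and 89.8 CPM in IMQ and 107 and 186 CPM in IMQ+SHP099; 0.83 ± 0.28) on the higher side, and the matrix proteoglycan gene Fmod (64.9 and 63.9 CPM in IMQ and 18.0 and 46.9 CPM in IMQ+SHP099; -0.84 ± 0.52 or -0.46) and Lurap1l (30.4 and 28.7 CPM in IMQ and 27.1 and 12.8 CPM in IMQ+SHP099; -0.78 ± 0.47 or -1.21) on the lower side. IMQ+SHP099 1 held only 119 mural cells.

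T cells carried receptor transcripts of both the gamma-delta and the alpha-beta kind, and the type 17 program varied between the libraries of each group. Gamma-delta markers summed to 4267 and 2983 CPM in IMQ and 6013 and 3419 CPM in IMQ+SHP099, and alpha-beta markers to 1756 and 1771 CPM and 1552 and 1353 CPM, the second lower without overlap. Il17a was at 2384 and 867 CPM in IMQ and 308 and 2128 CPM in IMQ+SHP099. The lowest and the second highest value were both in the IMQ+SHP099 group, so the groups overlapped (-0.42 ± 0.96), and the difference was 0.36 without IMQ+SHP099 1. Il17f overlapped as well, at 1758 and 1126 CPM in IMQ and 511 and 1406 CPM in IMQ+SHP099 (-0.59 ± 0.79 or -0.06). Il22, the cytokine gene that acts on keratinocytes, was at 2166 and 1568 CPM in IMQ and 716 and 1282 CPM in IMQ+SHP099, lower without overlap (-0.90 ± 0.81, and -0.56 without IMQ+SHP099 1), and at 1.65 and 40.3 CPM in Sham. In IMQ 2, 1 cell held 37.9% of the Il22 UMIs, and without it that library was at 982 CPM, below IMQ+SHP099 2.

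Over the 21 tested type 17 genes, 20 had a fitted difference below 0 and 10 were separated lower against 1 higher, beside 17.9% and 18.4% of all genes. The median was -0.68, and -0.22 without IMQ+SHP099 1. Ccr6, a homing receptor of these cells, was at 48.5 and 83.5 CPM in IMQ and 17.4 and 47.8 CPM in IMQ+SHP099 (-0.93 ± 0.64 or -0.45), Ccr2, a receptor of monocyte chemokines, at 267 and 269 CPM in IMQ and 55.2 and 217 CPM in IMQ+SHP099 (-0.96 ± 0.73 or -0.32) and Il17re, which encodes an interleukin-17 receptor chain, at 31.3 and 28.8 CPM in IMQ and 7.26 and 24.3 CPM in IMQ+SHP099 (-0.85 ± 0.85 or -0.34). In each, IMQ+SHP099 2 lay close under the IMQ libraries and IMQ+SHP099 1 far below, for Ccr6 only with the cell that held 5.51% of its UMIs in IMQ 1. Trdv4, a gamma-delta receptor segment, was the member that was separated higher, at 203 and 109 CPM in IMQ and 318 and 244 CPM in IMQ+SHP099 (0.83 ± 0.58).

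The library IMQ+SHP099 1 differed in its T cells also by depth, with a median of 1242 UMIs per T cell against 2495 to 3216 in the other 3 libraries. Its T cells carried keratin genes of the keratinocyte gate at a summed level of 931 CPM, against 235 and 129 CPM in IMQ and 120 CPM in IMQ+SHP099 2. The part of these in the T cell results was not tested. Of 37 receptor and activation genes, 10 were separated lower and 1 higher (median -0.21). The exception was the gate gene Cd3e, at 559 and 524 CPM in IMQ and 1235 and 674 CPM in IMQ+SHP099 (0.82 ± 0.51 or 0.29). Ccr7, a receptor of naive and central memory T cells, was at 44.3 and 31.9 CPM in IMQ and 8.72 and 19.1 CPM in IMQ+SHP099 (-1.41 ± 0.58), Cd8a at 32.5 and 27.3 CPM in IMQ and 2.91 and 26.1 CPM in IMQ+SHP099 (-0.94 ± 1.09 or -0.24), and Xcl1, a chemokine gene for cross-presenting dendritic cells, at 529 and 792 CPM in IMQ and 356 and 522 CPM in IMQ+SHP099 (-0.59 ± 0.44 or -0.36). The groups overlapped for Cd8a without the cell that held 33.3% of its UMIs in IMQ 2, and for Xcl1 without the cell that held 12.1% in IMQ 1. Cell cycle genes had 11 of 42 separated lower and 0 higher, beside 17.9% and 18.4% of all genes, with a median of -0.34. Of these, Cdca8, Kif11, Rrm1, Rrm2, Tpx2 and Tubb5 were separated only with 1 cell of IMQ 2, and Kif11 also only with 1 cell of IMQ 1. Ccna2, Cenpe, Mki67, Plk1 and Stmn1 stayed separated without such a cell. The largest differences by the rule were Fam174b (35.5 and 22.8 CPM in IMQ and 264 and 38.3 CPM in IMQ+SHP099; 2.30 ± 0.91 or 0.32) and the pore-forming gasdermin gene Gsdme (16.0 and 18.2 CPM in IMQ and 116 and 36.5 CPM in IMQ+SHP099; 2.14 ± 0.73 or 1.09) on the higher side, Fam174b only with the cell that held 11.4% of its UMIs in IMQ+SHP099 2, and Gm8369 (-1.63 ± 0.82 or -0.92) and the acid phosphatase gene Acp5 (46.2 and 56.2 CPM in IMQ and 8.72 and 22.6 CPM in IMQ+SHP099; -1.62 ± 0.50) on the lower side.

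The myeloid class had a different makeup in IMQ+SHP099 1. Langerhans cell markers, led by Cd207 of the epidermal dendritic cells, summed to 19110 CPM there, against 4700 and 3276 CPM in IMQ and 2280 CPM in IMQ+SHP099 2. Macrophage and monocyte markers summed to 4037 CPM there, against 18272 and 17871 CPM in IMQ and 18990 CPM in IMQ+SHP099 2. The 11 neutrophil markers summed to 24851 and 65450 CPM in IMQ and 2010 and 22407 CPM in IMQ+SHP099, lower in both libraries. The class of IMQ+SHP099 2 thus held macrophage transcripts like IMQ. Its neutrophil sum lay close under that of IMQ 1 and far under that of IMQ 2.

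**Figure D5:**
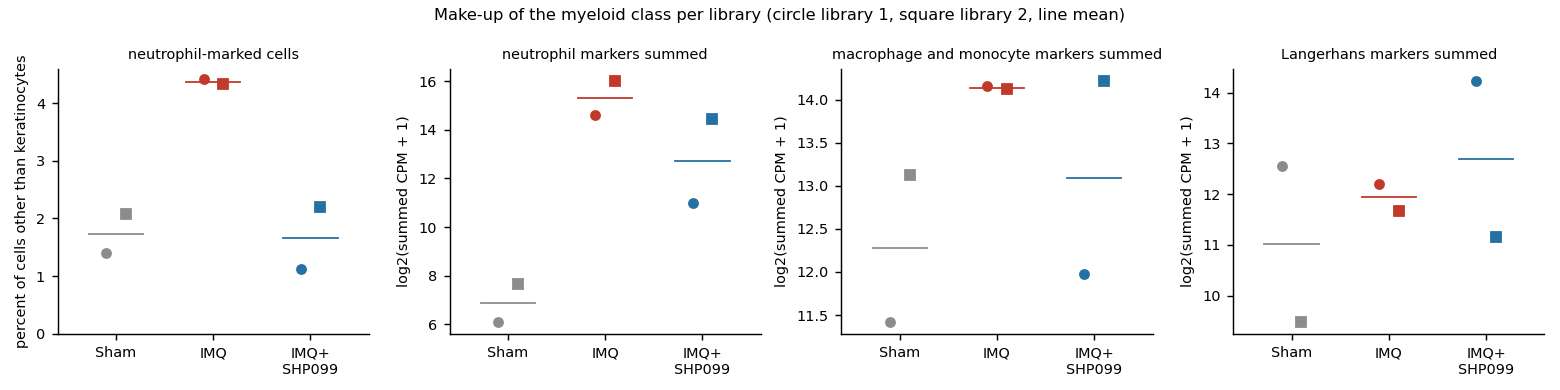
Neutrophil-marked cells as a percentage of cells other than keratinocytes (left, axis from 0) and the summed level of 3 marker lists within the myeloid class, as log2(CPM + 1), in all 6 libraries (grey Sham, red IMQ, blue IMQ+SHP099; circles library 1, squares library 2, lines means). Neutrophil measures lie lower in both IMQ+SHP099 libraries than in both IMQ libraries, whereas macrophage and Langerhans sums set IMQ+SHP099 1 apart from the other 3.

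Single genes of neutrophils in the class followed. S100a9 was at 10564 and 28425 CPM in IMQ and 813 and 8732 CPM in IMQ+SHP099 (-2.03 ± 1.32 or -1.16). Ngp, a granule protein gene of young neutrophils, was at 1181 and 1787 CPM in IMQ and 0.54 and 376 CPM in IMQ+SHP099 (-2.97 ± 1.98), and Prok2, a neutrophil-made peptide gene, at 21.6 and 57.2 CPM in IMQ and 0 and 9.22 CPM in IMQ+SHP099 (-3.03 ± 1.22). Lyz1, a lysozyme gene whose close paralog is Lyz2, was at 26.0 and 51.5 CPM in IMQ and 5.4 and 4.39 CPM in IMQ+SHP099 (-2.98 ± 1.40). All 4 genes were lower in both IMQ+SHP099 libraries, and Ngp and Prok2 were at 0 in both Sham libraries. In IMQ+SHP099 2, 1 cell held 68.5% of the Ngp UMIs, and the level was 119 CPM without it. Fewer neutrophils in the class and less of these transcripts per cell cannot be told apart in these sums.

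The 10 hub genes that the study chose on these samples all had a fitted difference below 0 in the myeloid class, and 4 of 10 were separated lower. They are not independent evidence of that direction, and their median of -0.81 was 0.02 without IMQ+SHP099 1. Mmp9, a gelatinase gene, was at 95.9 and 285 CPM in IMQ and 6.48 and 56.7 CPM in IMQ+SHP099 (-2.58 ± 1.13, and -1.75 without IMQ+SHP099 1). Clec4d, a C-type lectin receptor gene that is also on the neutrophil marker list, was at 170.0 and 191 CPM in IMQ and 32.9 and 126 CPM in IMQ+SHP099 (-1.18 ± 0.61 or -0.52), Itgam, an integrin chain of phagocytes, at 386 and 391 CPM in IMQ and 97.2 and 336 CPM in IMQ+SHP099 (-0.84 ± 0.60 or -0.22) and Fn1, which encodes fibronectin, at 595 and 549.9 CPM in IMQ and 49.7 and 428 CPM in IMQ+SHP099 (-1.26 ± 1.46 or -0.42). Of the study's inflammation list, a set of cytokine and signalling genes, 17 of 34 tested members were above 0 in myeloid cells, with 1 separated higher and 4 lower.

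Genes of the TLR7 and NF-kB pathway, which imiquimod activates, had no common direction in myeloid cells. Of 41 tested, 22 were above 0, with 8 separated higher and 3 lower beside 13.6% and 15.4% of all genes, and the median was 0.07. Tlr7 itself was at 16.3 and 24.0 CPM in IMQ and 2.7 and 31.2 CPM in IMQ+SHP099, overlapping (-0.23 ± 1.11, and 0.63 without IMQ+SHP099 1). The adaptor gene Myd88 was at 98.7 and 110.2 CPM in IMQ and 54.5 and 92.7 CPM in IMQ+SHP099 (-0.50 ± 0.39 or -0.18) and Tlr2, the receptor for bacterial lipoproteins, at 183 and 169.8 CPM in IMQ and 49.7 and 145 CPM in IMQ+SHP099 (-0.86 ± 0.76 or -0.29), both separated lower. Rel, an NF-kB subunit gene, was at 283 and 291 CPM in IMQ and 572 and 311 CPM in IMQ+SHP099 (0.62 ± 0.38 or 0.11), and the kinase gene Irak2 at 57.6 and 60.0 CPM in IMQ and 75.6 and 76.9 CPM in IMQ+SHP099 (0.37 ± 0.24), both separated higher. Tnip1, a brake on NF-kB, was at 69.1 and 64.2 CPM in IMQ and 96.1 and 82.1 CPM in IMQ+SHP099 (0.42 ± 0.44). Il1b, a target of the pathway, overlapped at 1771 and 1300 CPM in IMQ and 4368 and 1451 CPM in IMQ+SHP099, and its difference of 0.92 became -0.09 without IMQ+SHP099 1.

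Genes of antigen presentation and of macrophage states depended on IMQ+SHP099 1. The MHC class II genes had 10 of 12 members above 0 and a median of 0.67, which became -0.73 without that library. H2-Aa was at 2929 and 2313 CPM in IMQ and 8546 and 1338 CPM in IMQ+SHP099, so the 2 IMQ+SHP099 libraries lay on either side of IMQ. Interferon-stimulated genes had a median of -0.24, and 0.32 without it. Trem2, a lipid-sensing receptor of macrophages, was at 72.9 and 71.6 CPM in IMQ and 5.4 and 35.1 CPM in IMQ+SHP099 (-1.81 ± 0.77, and -1.04 without IMQ+SHP099 1). Chil3, a chitinase-like gene of monocytes and macrophages, was at 3520 and 3792 CPM in IMQ and 225 and 3136 CPM in IMQ+SHP099 (-1.12 ± 1.13 or -0.23). Ccl8, a chemokine gene of resident macrophages, was at 2.6 and 15.1 CPM in IMQ and 106 and 34.7 CPM in IMQ+SHP099 (2.99 ± 0.93 or 1.97), and in Sham at 880.3 and 1285 CPM. Trem2 and Chil3 were lower in both IMQ+SHP099 libraries. Ccl8 was higher in both, but 1 cell held 89.9% of its UMIs in IMQ+SHP099 2, and without it that library was at 3.52 CPM, between the IMQ libraries. Over the 38 macrophage state genes, 3 were separated higher and 7 lower.

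On the higher side, the rule named Irf4, a factor of dendritic cells, at 26.0 and 24.5 CPM in IMQ and 209 and 34.3 CPM in IMQ+SHP099 (2.27 ± 0.90), Hist1h2ae at 38.6 and 38.6 CPM in IMQ and 139 and 91.4 CPM in IMQ+SHP099 (1.57 ± 0.57) and Tnfaip2, a gene induced by tumour necrosis factor, at 209 and 238 CPM in IMQ and 800.1 and 253 CPM in IMQ+SHP099 (1.23 ± 0.78). Irf4 and Tnfaip2 were high in IMQ+SHP099 1, with differences of 0.43 and 0.17 without it. The haemoglobin genes that DESeq2 called in this class were highest in the same library, with Hbb-bs at 6.92 and 5.17 CPM in IMQ and 269 and 32.1 CPM in IMQ+SHP099, and 1 cell held all Hbb-bs UMIs of IMQ+SHP099 1. Erythroid markers summed to 11.2 and 9.35 CPM in IMQ and 552 and 50.1 CPM in IMQ+SHP099, and their part in the myeloid results was not tested.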

How the data were processed

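The assay was droplet 3′ single-cell RNA sequencing of dissociated dorsal skin. The deposited matrices hold raw UMI counts, not normalized, that the authors obtained by running CellRanger 3.1.0 on GRCm38. No doublet caller was run here, and cells that passed 2 gates with multiples within a factor of 3 of each other were left out as mixed. Barcodes under 100000 UMIs, 6500 genes and 10% mitochondrial UMIs were kept. A cell joined the gate whose marker sum per 10000 UMIs exceeded its cut by the largest multiple (cuts 30, 20, 30, 3, 5 and 15 for keratinocytes, fibroblasts, mural, endothelial, T and myeloid cells, at least 2 marker UMIs). UMIs were summed per library and class, and 31053 genes were filtered by filterByExpr. edgeR 4.0.16 fitted all 6 libraries by quasi-likelihood with TMM and Benjamini-Hochberg adjustment. The libraries of a group are separate pools, and p-values measure the spread between them. Shares were compared by exact two-sided permutation tests. Depth in a class ranged from 569420 to 148179197 UMIs.

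Genes were named by a rule: the genes with the largest separated difference at 20 CPM or more in each class, and separated members of the lists of that class, with well-known members added; 1 gene that the rule named is not reported here. The cells, lists and rules were chosen with earlier results of these data known. Alternatives were DESeq2 1.42.0, other size factors, no low-count filter, only the 4 treated libraries, a replicate block, a 5% mitochondrial limit, doubled cuts, no mixed class, leaving out each library and, added after the data were seen, leaving out the cell with the most UMIs of a gene. Gene positions came from GENCODE M21. The script was tested on simulated data.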

Additional observations from a re-analysis of the deposited data

Results flagged for a closer look

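Areg, Dusp6 and Ier3, all linked to ERK, lay on opposite sides in different classes, with every IMQ+SHP099 library above both IMQ libraries in 1 class and below them in another. These differences between classes were not tested. Areg had a fitted log2 difference of -0.28 in T cells and 3.19 in myeloid cells. Dusp6 had 0.54 in keratinocytes and 0.64 in endothelial cells, and -0.57 in myeloid cells. Ier3 had 0.94 in keratinocytes, -0.52 in fibroblasts and -0.55 in endothelial cells. The myeloid value of Areg rests on 51, 46, 247 and 58 UMIs in IMQ 1, IMQ 2, IMQ+SHP099 1 and IMQ+SHP099 2. The T cell separation of Areg was lost without 1 cell with 43.6% of the UMIs in IMQ 2, and also without 1 cell with 11.2% in IMQ 1. The endothelial separation of Ier3 rests on 1 cell with 6.01% in IMQ 2, since the groups overlapped without it.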

How the results depend on the processing

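With 2 libraries per group, no gene passed in edgeR, and the counts depended on the tool. DESeq2 called 28 genes in keratinocytes, 1 in fibroblasts (Mmp9), 3 each in mural (Saa3, Ccl5, Wfdc17), endothelial (Igfbp3, Tmem252, Mest) and myeloid cells (Hbb-bt, Hbb-bs, Hba-a1). In mural cells, 1 cell held 95.9% of the Ccl5 UMIs in IMQ 1 and 1 cell held 83.5% in IMQ 2. Without the cell of IMQ 1 the groups overlapped for Ccl5. For each of the 3 myeloid genes, 1 cell held 100% of the UMIs in IMQ+SHP099 1, and the separation was lost without it. Without the low-count filter edgeR called 168, 18, 99, 96 and 66 genes in keratinocytes, fibroblasts, mural, endothelial and T cells. With only the 4 treated libraries it called 2 in endothelial cells (Aqp1, Ackr1). The cause was not tested. These genes were chosen after their values were seen. The labels do not say that a replicate number marks a shared batch, so the numbers were not used as a pairing. Deviations of same-numbered libraries correlated at -0.08 to 0.40 over the classes and pairs of groups, and at over 0.1 in all 3 pairs of groups in T cells (0.11, 0.14 and 0.35) and myeloid cells (0.24, 0.23 and 0.40), where the block called 0 genes (edgeR, 575 and 290 at an unadjusted p under 0.05). A replicate block called 2 genes in keratinocytes (Gpx2, Krt42) and 2 in mural cells (Wfdc17, Retnlg), and gave medians of 0.64 for recruiting factors in keratinocytes, -0.13 for endothelial vessel genes and -0.35 for macrophage state genes, with 0.00070 for Ptpn11 in fibroblasts and -0.17 for Dusp6 in T cells.

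Leaving out 1 library at a time gave 0 to 2 calls in keratinocytes, 0 to 11 in mural cells (11 without IMQ+SHP099 2, where keratin genes led) and 0 to 1 in myeloid cells. Differences in share ranged, in percentage points, from -6.36 to 50.5 for keratinocytes, -27.7 to 6.84 for fibroblasts, -6.27 to 1.89 for mural cells and -3.13 to 3.14 for T cells. Fibroblasts differed by 2.98 among cells other than keratinocytes, and T cells by -1.80 in thinned cells and -0.019 with mixed cells assigned.

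List medians, with 1 library left out, ranged as follows. In keratinocytes they were 0.37 to 0.66 for lesional genes, 0 to 0.11 for homeostatic genes, 0.30 to 0.78 for recruiting factors, 0.29 to 0.55 for interferon genes and -0.14 to 0.61 for cell cycle genes. In fibroblasts they were -0.55 to -0.13 for ERK genes, -0.025 to 0.26 for inflammatory genes, -0.31 to -0.063 for matrix genes, 0.39 to 0.81 for interferon genes and -0.55 to -0.11 for cell cycle genes. In mural cells they were -0.29 to 0.15 for ERK genes and 0.048 to 0.10 for contractile genes, the latter 0.028 with doubled cuts. In endothelial cells they were -0.63 to 0.047 for ERK genes, -0.19 to -0.12 for vessel genes, 1.81 to 2.41 for MHC class II and -1.25 to 0.020 for cell cycle genes. In T cells they were -0.70 to 0.10 for ERK genes, -1.89 to -0.22 for type 17 genes, -0.58 to -0.15 for receptor genes and -0.72 to -0.11 for cell cycle genes. In myeloid cells they were 0.073 to 0.44 for ERK genes, 0.0042 to 0.13 for TLR7 genes, -2.70 to 0.023 for hub genes, -0.73 to 1.32 for MHC class II, -0.45 to -0.048 for macrophage state genes and -1.46 to 0.32 for interferon genes. Doubled cuts gave 0.025 for TLR7 and -0.21 for macrophage state genes.

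Fitted differences that changed sign with 1 library left out were those of Ptpn11, from -0.011 to 0.23 in keratinocytes, -0.13 to 0.082 in fibroblasts, -0.0097 to 0.053 in mural cells, -0.058 to 0.26 in endothelial cells, -0.23 to 1.82 in T cells and -0.20 to 0.34 in myeloid cells. Dusp6 ranged from -0.65 to 0.14 in fibroblasts, -0.98 to 0.71 in mural cells and -0.84 to 0.50 in T cells. Krt16 ranged from -0.34 to 0.035 and Spry1 from -0.20 to 1.42 in keratinocytes, Il17a from -2.42 to 0.49 in T cells, and Tlr7 from -2.91 to 0.63, Il1b from -0.088 to 1.48 and H2-Aa from -0.98 to 1.68 in myeloid cells. Doubled cuts gave 0.0081 for Ptpn11 in fibroblasts. With mixed cells assigned, Ptpn11 was -0.0076, Hbegf 0.014 and Dusp6 0.042 in mural cells, and Dusp6 was -0.012 in T cells. Of 1602 values of 131 named genes, 28 changed sign, 22 passed the threshold under an alternative and 1552 did neither. The neutrophil-marked shares, left-out libraries added after the data were seen, kept their sign.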
